A study of Homo sapiens with 6 samples.

Results

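Distal peaks of histone lysine acetylation (Kac) and lysine benzoylation (Kbz) on chromosomes 1, 6 and 10 are described here. A peak was counted as distal when it shared 0 bp with a window reaching 3 kb to either side of the first base (transcription start site, TSS) of any GENCODE 44 transcript on hg38. Of the 157919 peaks in the 3 lists, 85143 were distal and 21904 of these lay on the 3 chromosomes: 10747 of 40977 distal peaks in control Kac, 8947 of 35410 after sodium benzoate (SB Kac) and 2210 of 8756 in SB Kbz. Values of the 3 lists are given below in that order unless stated. The chromosomes had been chosen by their high density of distal peaks in these same lists, so their density is given as a description and with no test. At the edge of the rule, the member nearest to a TSS lay 3003, 3004 and 3013 bp away in the 3 lists, and 420, 344 and 98 members lay within 500 bp of a promoter window. Just outside the rule, 974, 908 and 412 peaks of the same chromosomes shared at most 500 bp with such a window and were left out.

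The peaks come from ChIP-seq of HepG2, a human hepatoma line, grown as control or with 10 mM sodium benzoate (SB) for 24 h. Micrococcal nuclease-digested chromatin was precipitated with a pan anti-Kac or a pan anti-Kbz antibody, which recognise the modified lysine on any histone. There were 6 groups of 1 library each (input, Kac and Kbz, control and SB), and only control Kac and the SB-treated Kac and Kbz have peak lists here. The labels say that no peak was called in control Kbz, and the inputs were not analysed here. With 1 library per group, no difference below has a replicate check, intervals cover counting error only, and the depth of each library is unknown.

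Acetylation of histone tails removes the positive charge of lysine and marks active promoters and enhancers, which are regulatory sequences that can lie far from the gene they act on. Benzoylation is a bulkier acyl mark on the same kind of residue, which cells make from benzoyl-CoA when they are given benzoate. Distal peaks of such marks are therefore read as candidate regulatory elements, and the nearest gene is a label of position and not a known target.

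The sequence under the distal Kbz peak with the highest fold enrichment (read density over background) on each chromosome is shown, because these are the sites where benzoylation stood out most. Each is the central 300 bases of the peak on the plus strand of hg38, with matches to any of the 13 motifs searched below in capitals. They lie at chr1:54950354-54950653, chr6:33161674-33161973 and chr10:124354365-124354664.
Chromosome 1: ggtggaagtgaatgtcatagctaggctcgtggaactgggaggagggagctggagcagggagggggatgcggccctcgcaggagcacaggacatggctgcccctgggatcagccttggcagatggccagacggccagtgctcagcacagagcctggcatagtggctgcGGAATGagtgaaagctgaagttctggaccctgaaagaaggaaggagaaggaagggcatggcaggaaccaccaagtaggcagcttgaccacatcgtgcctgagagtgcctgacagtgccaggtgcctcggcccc
Chromosome 6: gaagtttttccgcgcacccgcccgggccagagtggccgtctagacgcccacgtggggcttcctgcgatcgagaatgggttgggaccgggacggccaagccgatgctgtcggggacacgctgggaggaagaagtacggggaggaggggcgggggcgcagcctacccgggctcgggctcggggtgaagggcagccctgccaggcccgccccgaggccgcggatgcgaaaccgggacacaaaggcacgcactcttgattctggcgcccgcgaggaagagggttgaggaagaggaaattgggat
Chromosome 10: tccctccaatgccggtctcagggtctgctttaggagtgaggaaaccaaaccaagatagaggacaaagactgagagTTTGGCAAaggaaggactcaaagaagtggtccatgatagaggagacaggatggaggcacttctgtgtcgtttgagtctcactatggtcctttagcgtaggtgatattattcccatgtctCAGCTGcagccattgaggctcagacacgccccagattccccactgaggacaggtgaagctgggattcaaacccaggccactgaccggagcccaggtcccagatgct

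The chromosome 1 peak (chr1:54950089-54950918, arm 1p) was intronic to a non-coding transcript (ENSG00000242396) and 29710 bp from the nearest coding TSS, that of TMEM61. Its fold was 8.74, 6.16 and 9.66 in the 3 lists. The chromosome 6 peak (chr6:33161094-33162553, arm 6p) was intergenic and 4961 bp from the TSS of COL11A2, a fibrillar collagen gene of cartilage. Its fold was 5.49, 7.42 and 10.00. Its central window held 30 CpG dinucleotides and was 68.0% GC, against 7 and 61.0% in the chromosome 1 window and 5 and 52.3% in that of chromosome 10. The chromosome 10 peak (chr10:124353440-124355589, arm 10q) was intergenic, 47747 bp from the TSS of OAT, which encodes ornithine aminotransferase. Its fold was 6.83, 7.61 and 9.22. All 3 sites were therefore Kac peaks in control cells too.

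The labelled cell type was set beside marker genes in the whole series, by whether a gene had a peak within 3 kb of a TSS. In control Kac, 14 of 23 hepatocyte markers had such a peak, against 11 of 14 kidney, 5 of 10 neuronal, 4 of 8 blood and 4 of 7 fibroblast markers and 77.7% of all 19111 autosomal coding genes. ALB, APOB, FGA, FGB, FGG, SERPINA1, FOXA2 and NR1H4 had no promoter peak in any list, while HNF4A, APOA1 and TTR had one in control Kac and SB Kac. The hepatocyte markers were thus marked only in part. A missing peak does not measure expression.

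Distal peaks were denser on the 3 chromosomes than on the other 19 autosomes in every list. Per Mb of known sequence outside promoter windows and centromeres, control Kac had 24.8 distal peaks against 16.7, a ratio of 1.48 (95% counting interval 1.45 to 1.52). SB Kac had 20.7 against 14.7, a ratio of 1.41 (1.37 to 1.44), and SB Kbz had 5.10 against 3.57, a ratio of 1.43 (1.36 to 1.50). They were not the densest chromosomes. In control Kac, chromosomes 22, 17 and 19 came first with 40.8, 36.1 and 29.5 per Mb, followed by chromosome 10 with 27.2 and chromosome 1 with 25.7, while chromosome 6 ranked 8 of 22 with 22.0. In SB Kac, chromosomes 10, 1 and 6 had 22.6, 21.4 and 18.3 distal peaks per Mb, and in SB Kbz 5.34, 5.68 and 4.20.

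Set against genes instead of bases, the order changed. Per Mb of the same sequence outside promoter windows and centromeres, the 3 chromosomes carried 8.88 protein-coding genes and the other autosomes 8.70. Chromosome 10 had 4.07 distal control Kac peaks per coding gene, rank 1 of 22 beside chromosome 13 with 4.06, chromosome 6 had 3.01 and ranked 3, and chromosome 1 had 2.24 and ranked 10. The chromosomes that led per Mb came lower in this order, with 2.18 on chromosome 22 (rank 12), 1.61 on chromosome 17 (rank 19) and 0.638 on chromosome 19 (rank 22).

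The 6 arms were not alike. In control Kac, 6p had 29.3 distal peaks per Mb, 10q 28.3, 1p 27.4, 10p 24.5, 1q 23.7 and 6q 18.4. The same arms had 27.0, 24.0, 24.1, 19.3, 18.2 and 14.1 in SB Kac. They had 7.19, 5.71, 6.23, 4.48, 5.04 and 2.74 in SB Kbz. Arm 6q was the sparsest of the 6 in each list, close to the mean of the other autosomes in SB Kac and below it in SB Kbz. Per coding gene the order differed: 10p held 5.22 distal control Kac peaks per coding gene, the highest of 39 arms, and 6q 4.12, the next, whereas 6p held 2.23 and ranked 16. Across the 39 arms, distal density rose with coding genes per Mb, with Pearson's r of 0.592, 0.627 and 0.848 and Spearman's rho of 0.675, 0.726 and 0.848 in the 3 lists. These correlations are descriptions: arms of 1 list share a library, and genes and peaks share base composition. Both densities were also divided by the same Mb outside promoter windows and centromeres.

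**Figure D1:**
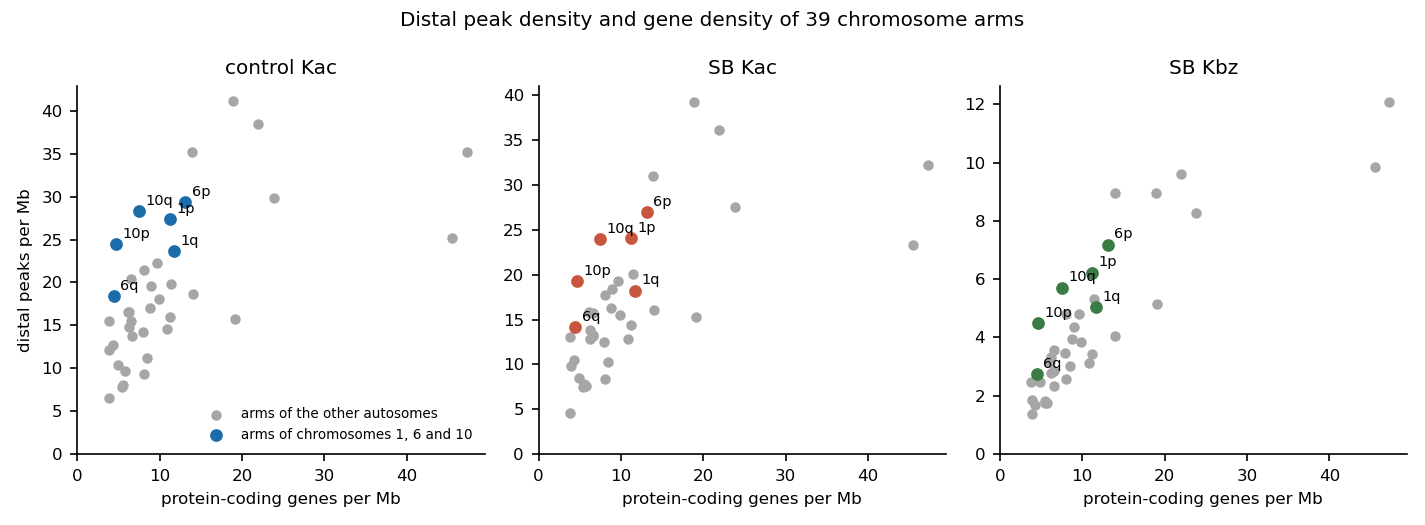
Distal peaks per Mb (vertical axis, own scale in each panel) against protein-coding genes per Mb (horizontal axis) for 39 autosomal arms in control Kac, SB Kac and SB Kbz. Both are per Mb of known sequence outside promoter windows and centromeres. Coloured points are the 6 arms of chromosomes 1, 6 and 10, and grey points the other 33. In control Kac, 10p lies at 24.5 distal peaks and 4.70 genes per Mb, well above other gene-poor arms.

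Along the arms, distal density varied between bins. In bins of 1 Mb with at least 0.5 Mb of eligible sequence, the median control Kac density was 19.5 per Mb over 519 bins of the 3 chromosomes and 11.9 over 2092 bins of the other autosomes. Of the 519 bins, 63.0% lay above that second value, from 52.3% on 6q to 42 of 56 bins on 6p and 76.3% on 10p. In SB Kac the medians were 15.5 and 10.2, with 60.3% of bins above, and in SB Kbz 3.39 and 2.12, with 67.8% above. Empty bins were fewer on the 3 chromosomes, 5.20%, 9.25% and 15.0% in the 3 lists against 10.9%, 14.4% and 27.9% on the other autosomes. The longest run of successive bins above the other autosomes' median was 19 on 1p, 18 on 10q, 16 on 1q and 14 on 6p in control Kac, 9 on 6q and 8 on 10p. Runs were counted over the bins kept and were not compared with those of the other autosomes.

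**Figure D2:**
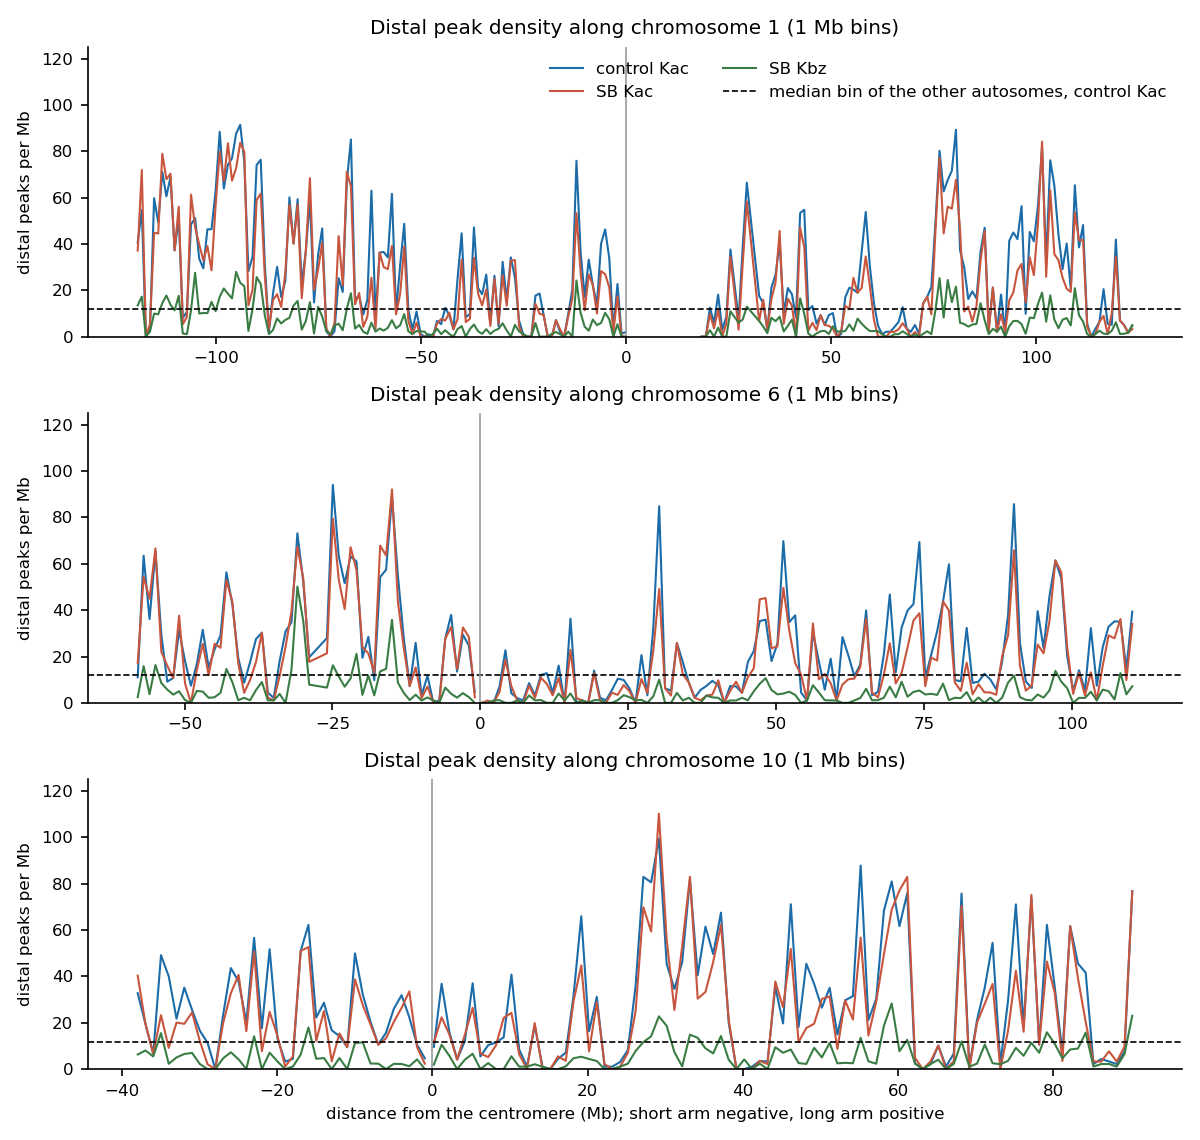
Distal peaks per Mb (vertical axis) in 1 Mb bins along chromosomes 1, 6 and 10 against distance from the centromere in Mb (horizontal axis, short arm negative), for control Kac, SB Kac and SB Kbz. The dashed line is the control Kac median of the other autosomes' bins, 11.9 per Mb. The highest bin of chromosome 10 is the same in control Kac and SB Kac, at 99.4 and 110.2 per Mb, while the highest SB Kbz bins, 50.2 per Mb on chromosome 6 and 28.3 on chromosome 10, are not the densest control Kac bins.

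Bins were also grouped by the number of coding genes starting in them. In control Kac the 3 chromosomes exceeded the other autosomes 1.64 times in bins with 1 to 3 genes, 1.47 times with 4 to 8 and 1.32 times with 9 or more, but not in the 54 gene-free bins, where they had 5.61 against 6.15 distal peaks per Mb. In SB Kac these ratios were 1.49, 1.40 and 1.26, with 3.62 against 4.40 per Mb in gene-free bins. In SB Kbz they were 1.64, 1.37 and 1.27, with 1.11 (54 bins) against 0.940 per Mb in gene-free bins. The ratio was largest in bins with 1 to 3 genes in all 3 lists.

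The densest bin of chromosome 10 (chr10:71000001-72000000) had 99.4, 110.2 and 22.8 distal peaks per Mb in the 3 lists. Most of its control Kac peaks lay nearest to CDH23, a cadherin of the inner ear with 34 of them, UNC5B, a netrin receptor with 15, and PSAP, the precursor of the saposins with 11. The next bins of 10q were chr10:97000001-98000000, with SLIT1, GOLGA7B and SFRP5 and 87.8 control Kac peaks per Mb, and chr10:69000001-70000000, with COL13A1, FAM241B and TSPAN15 and 82.9. On chromosome 6 the densest bin lay at chr6:33000001-34000000, with 94.1 per Mb around MLN, IP6K3 and UQCC2. The second, chr6:43000001-44000000, had 88.7, 92.1 and 35.8, and 20 of its control Kac peaks lay nearest to VEGFA, the main growth factor of blood vessels. On 6q, chr6:150000001-151000000 had 85.8 per Mb around PLEKHG1, IYD and PPP1R14C. On chromosome 1 the densest bins were chr1:27000001-28000000 with 91.4 per Mb, around WASF2 and AHDC1, chr1:205000001-206000000 with 89.3, around CDK18, SLC26A9 and LEMD1, and chr1:22000001-23000000 with 88.4, around the ephrin receptor gene EPHB2, ZBTB40 and WNT4.

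Single genes gathered long series of distal peaks. On chromosome 10, LRMDA (chr10:75431624-76560168), a gene of melanocyte differentiation, was the nearest coding gene of 79, 74 and 20 peaks in the 3 lists, and 163 of these 173 lay in introns. ZMIZ1, a transcriptional coactivator, had 55, 58 and 12, CDH23 34, 42 and 9, GRK5 (a kinase of G protein-coupled receptors) 31, 37 and 5, and TCF7L2, a transcription factor of the Wnt pathway, 37, 27 and 9. On chromosome 6, GMDS (chr6:1623806-2245605), whose enzyme starts the synthesis of GDP-fucose, had 56, 57 and 12. ARID1B, a subunit of the BAF chromatin remodeller, had 58, 51 and 9, and JARID2, a partner of Polycomb complex PRC2, had 54, 52 and 10. CITED2, which binds the acetyltransferases CBP and p300, had 51, 34 and 3, and MAP3K7, the kinase TAK1, had 47, 28 and 5. On chromosome 1, ADGRL2 (chr1:81306147-81993932), an adhesion receptor of the latrophilin family, had 62, 40 and 6, and CAMTA1, a calmodulin-binding transcription factor, had 47, 46 and 8. The homeobox gene HLX had 35, 28 and 5, RHOU, a small GTPase, had 33, 27 and 7, and FGGY, a carbohydrate kinase, had 46, 15 and 3. All 15 genes had a promoter peak in control Kac and in SB Kac, and 14 of them in SB Kbz, with CDH23 as the exception, against 79.1%, 77.2% and 66.1% of all 3842 coding genes of these chromosomes. The 15 genes were chosen for their many peaks. The number in SB Kac was above that in control Kac for ZMIZ1, CDH23, GRK5 and GMDS and below it for the other 11.

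Lineage genes of the 3 chromosomes were described by their distal peaks within 100 kb of a TSS. The lists were chosen with earlier results of these data known. Of 31 liver genes, 10, 12 and 7 had a promoter peak in the 3 lists, and their median number of distal control Kac peaks was 1. The same figures for all 3842 coding genes of these chromosomes were 79.1% with a promoter peak and a median of 5. ARG1, the urea cycle arginase, and CPN1, a plasma carboxypeptidase, each had 12 distal control Kac peaks without a promoter peak, and APOA2, NR0B2, PROX1 and HHEX had promoter peaks in all 3 lists. CRP, APCS, PLG and LPA had neither a promoter peak nor a distal peak in any list. Of 14 kidney genes, 10 had a promoter peak and the median was 8.5 distal peaks in control Kac. PAX2, a transcription factor of the developing kidney, had 20, 13 and 6 distal peaks in the 3 lists, EYA4 had 15, 18 and 3, EMX2 15, 7 and 2, and WNT4 16, 17 and 1 without a promoter peak. Of 10 neuronal genes 4 and of 11 blood genes 7 had a promoter peak, with medians of 1 and 5 distal peaks. RUNX3, a factor of lymphocyte development, led the blood genes with 22, 17 and 3.

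The excess over the other autosomes lay mainly among peaks of low fold. When the autosomal distal peaks of a list were split into 4 equal groups by fold, the density ratio to the other autosomes in control Kac was 2.47 (2.37 to 2.57) in the lowest group, 1.32 in the second, 1.15 in the third and 1.19 (1.14 to 1.25) in the highest. The lowest group held folds from 1.83 to 2.68. In SB Kac the ratios were 2.22, 1.23, 1.12 and 1.19, and in SB Kbz 1.97, 1.32, 1.30 and 1.19. The median distal peak of the 3 chromosomes stood at percentile 33.0 of fold in control Kac, against 43.5 on the other autosomes. It stood at 33.0 against 41.8 in SB Kac and at 27.7 against 33.8 in SB Kbz. Counting only peaks with at least the median fold of their list gave density ratios of 1.18, 1.14 and 1.22.

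Arms differed in this pattern. In control Kac, 1q had a ratio of 3.13 in the lowest group of fold and 0.908 in the highest, 10q 3.27 and 1.10, and 6q 1.83 and 0.876. Arm 6p went the other way, from 1.58 in the lowest group to 1.98 in the highest, and 1p, 10p and 10q stayed above 1 in all 4 groups. In SB Kac 6p had 1.76 in the lowest and the highest ratio of the 6 arms in the highest group, while 1q fell from 2.59 to 0.939 and 6q from 1.52 to 0.821. In SB Kbz, 6p had 1.59 in the lowest and 1.98 in the highest group, 6q 1.12 in the lowest and below 1 in the highest (interval 0.457 to 0.786), and 10p, with few peaks, 1.93 and 0.526. Split by −log10 p instead, the ratios of the 3 chromosomes together were more even, at 1.72, 1.44, 1.32 and 1.47 in control Kac.

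**Figure D3:**
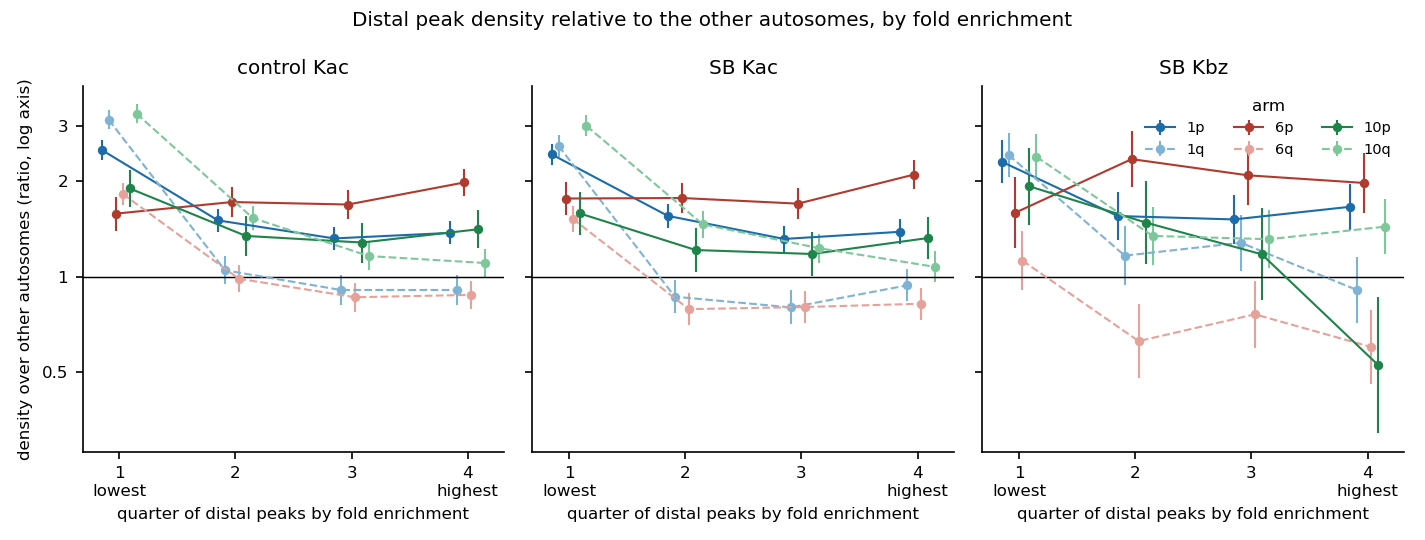
Density of distal peaks on each of the 6 arms divided by that on the other autosomes (vertical axis, log scale) in 4 equal groups of autosomal distal peaks ordered by fold enrichment (horizontal axis, lowest to highest), for control Kac, SB Kac and SB Kbz. Bars are 95% counting intervals and the line marks a ratio of 1. In control Kac, 1q goes from 3.13 to 0.908 while 6p goes from 1.58 to 1.98.

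At equal fold, the −log10 p of a peak rises with the number of reads in it. A relative −log10 p was therefore computed, as the value of a peak over the median of all autosomal peaks of the same list in the same of 20 groups of fold. For distal peaks the median was 1.06, 1.06 and 1.07 on the 3 chromosomes and 0.995, 0.993 and 1.00 on the other autosomes. Of the 6 arms, 1q had the highest values, 1.11, 1.13 and 1.16, followed by 10q with 1.08, 1.10 and 1.11 and 6q with 1.08, 1.09 and 1.10. Arm 6p had 0.993, 0.994 and 0.996. Promoter peaks, which the rule left out, gave nearly the same values, for example 1.13 on 1q and 0.979 on 6p in control Kac. Of the other autosomes, 21q had 1.13 for distal peaks in control Kac.

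Within the arms the relative −log10 p was not uniform. On chromosome 6 it stayed between 0.985 and 1.01 in every 10 Mb stretch from 0 to 110 Mb in control Kac, and between 1.10 and 1.17 in the stretches from 110 to 170 Mb. On chromosome 1 it rose and fell, with 0.975 at 0 to 10 Mb and 1.22 at 60 to 70 Mb. It was back at 1.06 at 170 to 180 Mb and reached 1.25 at 230 to 240 Mb. On 10p it was 1.05, 1.07 and 1.07 in the stretches from 0 to 30 Mb and 0.980 at 30 to 40 Mb. On 10q it was 0.998 at 40 to 50 Mb, a stretch that includes part of the centromere, and 1.14 at 50 to 60 Mb. SB Kac and SB Kbz followed a similar course, with 1.28 and 1.33 at 230 to 240 Mb of chromosome 1. The lists parted in some stretches, with 1.217, 1.118 and 1.090 at 240 to 250 Mb of that chromosome. Over 54 stretches of 10 Mb, density and relative −log10 p had Pearson's r of -0.041, -0.063 and -0.033 and Spearman's rho of -0.066, -0.103 and 0.0074 in the 3 lists. Stretches share a library and neighbours are not independent. Among arms whose promoter peaks had a median at most 0.05 above 1, the density ratio was 1.64, 1.63 and 1.73. This kept 1p, 6p and 10p, and left 21q out of the other autosomes. It left out 1q and 6q, the sparsest of the 6 arms in control Kac with 23.7 and 18.4 per Mb, and 10q with 28.3. Arm 1p still held the stretch with 1.22. This ratio is a description and not a test of whether density depends on relative −log10 p.

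**Figure D4:**
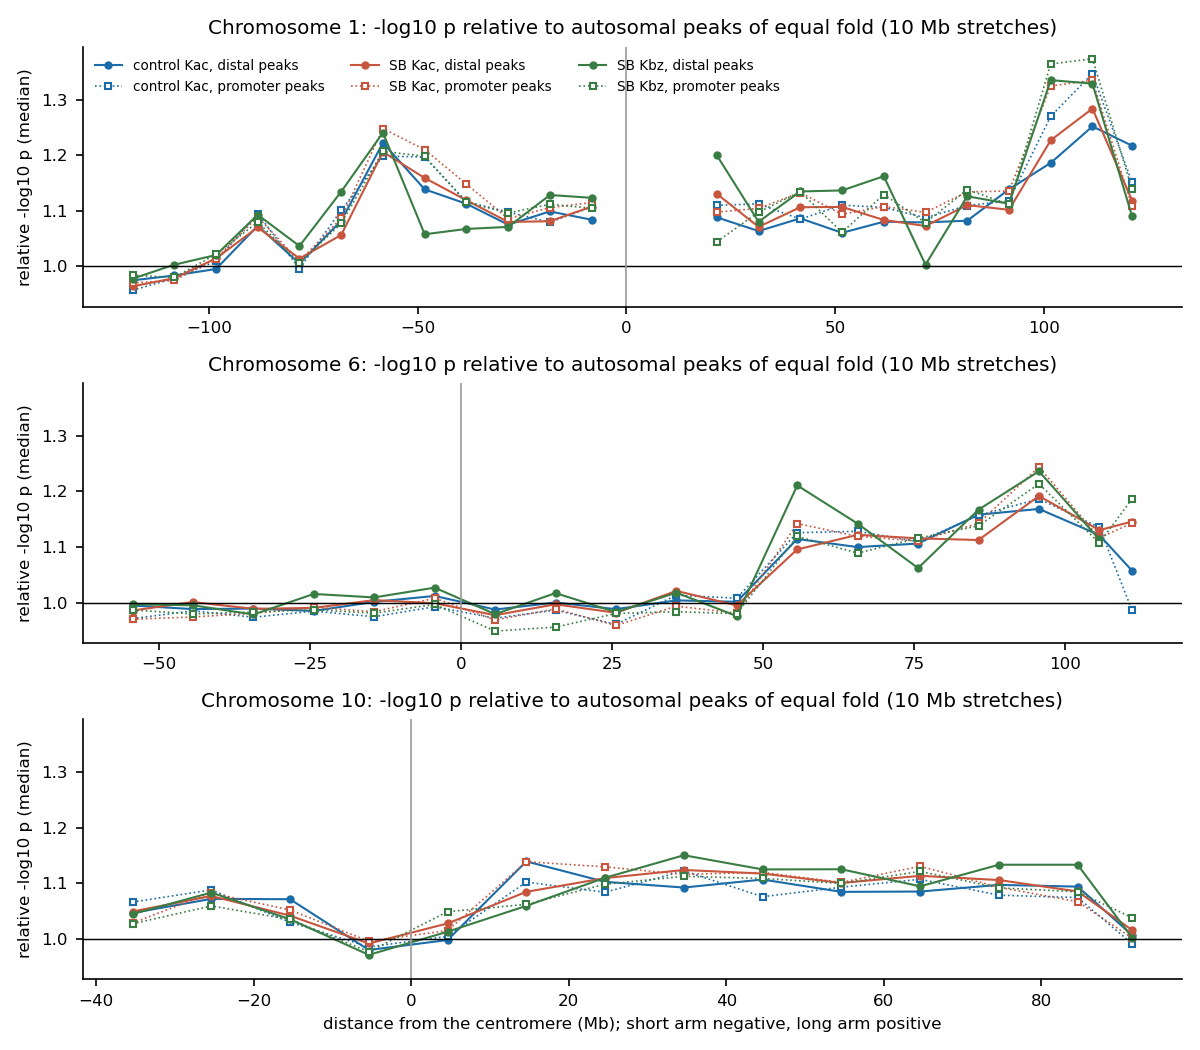
Median −log10 p relative to autosomal peaks of equal fold (vertical axis) in 10 Mb stretches of chromosomes 1, 6 and 10 against distance from the centromere in Mb (horizontal axis, short arm negative). Filled circles are distal peaks and open squares promoter peaks of control Kac, SB Kac and SB Kbz. The 6 lines of a panel follow a similar course but part in some stretches. At 70 to 80 Mb of chromosome 1, SB Kbz has 1.058 for distal and 1.198 for promoter peaks. On chromosome 6 the distal control Kac line steps from 1.00 to 1.11 between 100 to 110 Mb and 110 to 120 Mb.

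Distal peaks of the 3 chromosomes were slightly longer at the median than those of the other autosomes. The median length was 1045, 983 and 726.5 bp in the 3 lists, against 970, 944 and 713 bp. The share over 5 kb was higher in control Kac and SB Kac, with 4.21% and 3.03% against 3.31% and 2.53%. In SB Kbz it was lower, 0.0905% (2 peaks) against 0.191% (12 peaks). The longest of all distal peaks lay on 10q, over introns of ADAM12, a membrane metalloprotease: chr10:126184674-126225224 in control Kac with 40551 bp and chr10:126186014-126261645 in SB Kac with 75632 bp. The second covered 2 control Kac peaks and 10 SB Kbz peaks. The longest distal peaks of chromosome 6 were 29920 bp near FRMD1 in control Kac and 26417 bp in GMDS in SB Kac, and those of chromosome 1 were 20544 bp near SYT14 and 16142 bp in CASZ1, a zinc finger factor. Kbz peaks were shorter, the longest being 5515 bp in an intron of LRMDA (chr10:76111486-76117000). Of the distal control Kac peaks of the 3 chromosomes, 49.5% lay in introns, 40.2% between genes and 10.3% on exons, with a median of 25.5 kb to the nearest coding TSS. On the other autosomes these were 50.7%, 39.5%, 9.85% and 24.5 kb. For SB Kac the distance was 22.9 kb, and 54.0% were intronic, and for SB Kbz 24.3 kb and 42.9%.

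The distal control Kac peaks with the highest fold were chr1:153696874-153699721 near NPR1, the receptor of atrial natriuretic peptide, at 9.02, chr6:15147700-15149639 at 8.77, which lay 96430 bp from the TSS of JARID2, and chr10:92839254-92840083 in an intron of EXOC6 at 8.19. The overlapping SB Kac peaks had folds of 6.22, 7.98 and 5.21. In SB Kac the leading peaks were chr1:200242369-200244203, 165789 bp from ZNF281, at 8.55, chr6:28673895-28674775 near SCAND3 at 8.99, and chr10:44864354-44865748, nearest to TMEM72, at 8.03. They had 4.23, 6.45 and 5.74 in control Kac. The second in SB Kac on chromosome 6, chr6:27096414-27097770 at 8.33, lay nearest to H2BC11, a gene of the histone cluster. The other highest-fold Kbz peaks included chr1:11719330-11719990 on an exon of DRAXIN at 9.25, chr6:107847857-107849257 near SCML4 at 8.11 and chr10:46993062-46993623 in an intron of PTPN20 at 8.82. All 27 peaks of this kind, 3 for each chromosome and list, overlapped a peak of both other lists. They were chosen for high fold. In the highest decile of fold on the 3 chromosomes, 94.7% of distal control Kac peaks overlapped SB Kac and 72.3% overlapped SB Kbz. In that decile of SB Kac, 89.7% of distal peaks overlapped SB Kbz.

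The number of distal peaks in SB Kac relative to control Kac differed between arms. For every 100 distal control Kac peaks there were 83.3 SB Kac peaks on the 3 chromosomes and 87.8 on the other autosomes. The 3 chromosomes gave 83.2, 83.3 and 83.2, but their arms ranged from 76.6 on 6q and 77.0 on 1q, which ranked 2 and 3 from the lowest of 39 arms, over 78.8 on 10p, 84.8 on 10q and 87.9 on 1p to 92.0 on 6p. Promoter peaks of the same arms gave 86.7 on 6q, 89.5 on 1q and 99.2 on 1p. The number of peaks called depends on sequencing depth, which is unknown, so a difference between libraries and an effect of SB cannot be told apart. The 6 lowest of the 39 arms were 5p (69.3), 6q, 1q, 5q, 9p and 10p. Their relative −log10 p for distal control Kac peaks was 0.977, 1.08, 1.11, 1.02, 0.988 and 1.04. Arm 21q, with the highest relative −log10 p, gave 82.9 and ranked 10 from the lowest. A link between the 2 measures was not tested. For every 100 SB Kac peaks there were 24.7 SB Kbz peaks on the 3 chromosomes and 24.3 on the others, from 19.4 on 6q to 27.7 on 1q.

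Of the distal control Kac peaks of the 3 chromosomes, 53.9% (5798 of 10747, Wilson 95% interval 53.0 to 54.9) overlapped an SB Kac peak by at least 1 bp, against 55.7% on the other autosomes and 55.3% on all autosomes. The arms ranged from 49.4% on 1q and 49.7% on 6q to 59.6% on 6p. In the other direction, 67.3% (66.3 to 68.3) of distal SB Kac peaks overlapped a control Kac peak, against 64.7% on the other autosomes and 65.4% on all, with 71.9% on 1q. Peaks with a partner were longer and stronger: control Kac peaks that overlapped SB Kac had a median of 1439.5 bp and fold percentile 48.3, and those without had 739 bp and 19.9. A peak in both SB Kac and SB Kbz was found at 14.7% of the distal control Kac sites, SB Kac alone at 39.2%, SB Kbz alone at 0.437% and neither at 45.6%.

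Most distal benzoylation peaks coincided with acetylation peaks. Of the 2210 distal SB Kbz peaks, 88.0% (86.6 to 89.3) overlapped an SB Kac peak and 87.8% a control Kac peak, against 87.2% and 87.1% on all autosomes. On 6p the shares were 94.7% and 94.1%, on 1p 86.1% and 85.6%. Seen from acetylation, 18.7% (17.9 to 19.5) of distal SB Kac peaks overlapped SB Kbz, against 18.6% on all autosomes, and 15.2% of control Kac peaks did, against 15.8%. The shares on the 3 chromosomes together were thus near the background in each direction. They ranged from 15.4% of SB Kac peaks on 6q to 21.3% on 6p.

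At equal fold, the overlap of the 3 chromosomes stood higher in most deciles. Their distal peaks were also denser, by the choice of chromosomes, and longer at the median, and neither density nor length was held equal. Peaks of 1 library are not replicates, so the counts of deciles and of intervals apart are descriptions. Within each of 10 deciles of fold, the share of distal control Kac peaks with an SB Kac partner was above that of the other autosomes in 10 of 10 deciles, by 1.05 to 6.23 percentage points, although the intervals were apart in 1 only. For SB Kac peaks with control Kac it was above in 10 of 10, by 1.18 to 11.9 points, with intervals apart in 7, and for SB Kac with SB Kbz in 10 of 10, with intervals apart in 6. For SB Kbz peaks with SB Kac it was above in 9 of 10 and apart in 1. Weighted to equal deciles of fold, control Kac peaks with SB Kac came to 57.5% against 54.5%. Weighted to equal deciles of −log10 p, they came to 54.9% against 55.4%, so the direction of that difference followed the measure held equal. For SB Kac peaks with control Kac the 3 chromosomes were above under both weightings, at 69.9% against 63.9% and at 67.4% against 64.7%. For SB Kac peaks with SB Kbz the direction turned, from 21.1% against 17.8% at equal deciles of fold to 18.3% against 18.7% at equal deciles of −log10 p.

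**Figure D5:**
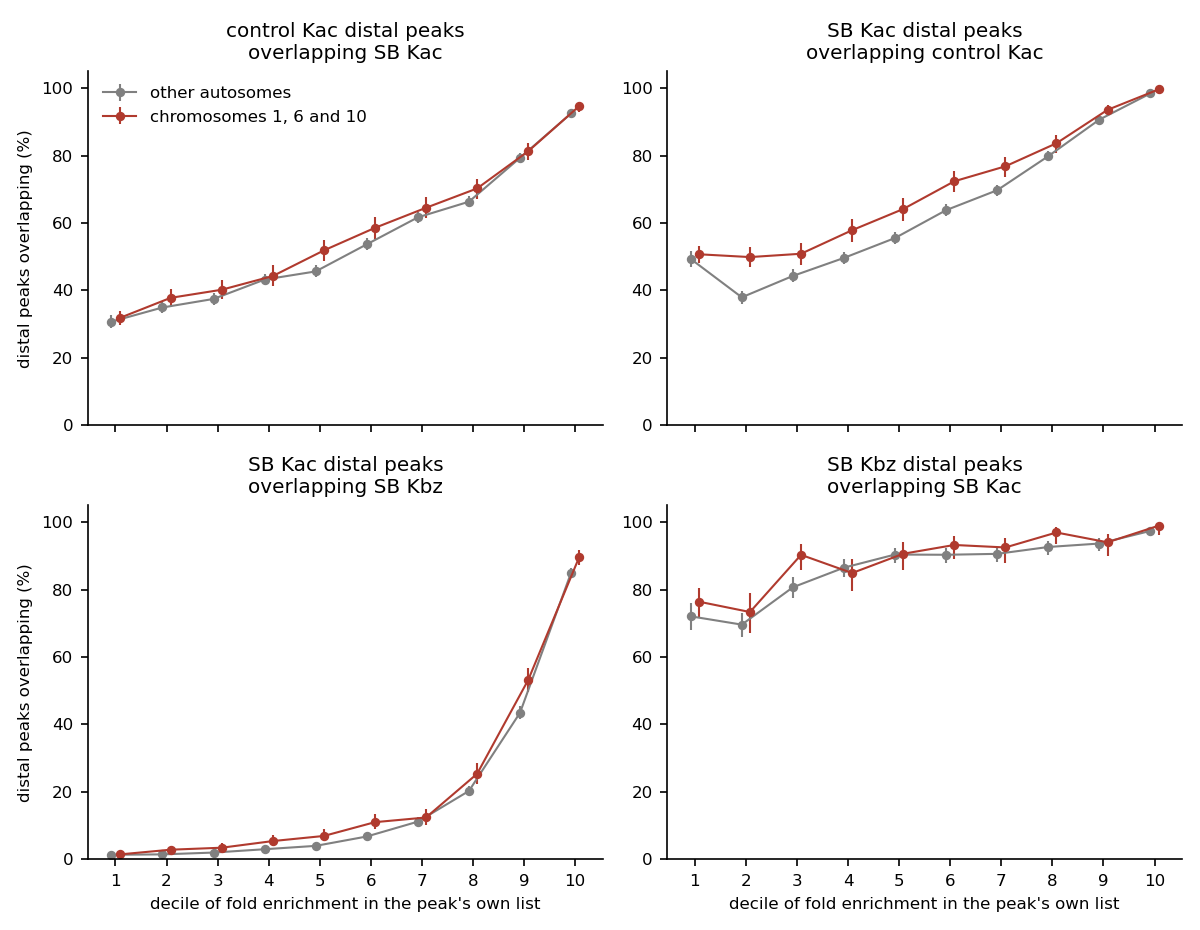
Share of distal peaks that overlap a peak of another list by at least 1 bp (vertical axis, percent) by decile of fold enrichment in their own list (horizontal axis), for chromosomes 1, 6 and 10 and for the other autosomes. Bars are Wilson 95% intervals. The share of SB Kac peaks with SB Kbz stays low up to the seventh decile and climbs steeply in the last 3, on both sets of chromosomes.

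Promoter peaks of the same chromosomes were also more numerous per coding gene, with 1.61 against 1.47 on the other autosomes in control Kac, 1.51 against 1.40 in SB Kac and 0.824 against 0.780 in SB Kbz. These counts take every peak that touched the window of any transcript, non-coding ones included, and only the divisor is limited to coding genes. Distal peaks per coding gene were 2.80 against 1.92 in control Kac. Arm 10p had the most promoter peaks per coding gene of the 6 arms, 2.16 in control Kac, where 81.7% of its coding genes had a promoter peak. Of the coding genes of the 3 chromosomes, 79.1%, 77.2% and 66.1% had a promoter peak in the 3 lists, against 77.4%, 76.7% and 65.4% on the other autosomes. Arm 1q had the lowest shares of the 6, with 70.7%, 69.3% and 57.6%, and 1p had 82.6% in control Kac. Distal peaks made up 63.4% of all control Kac peaks on the 3 chromosomes and 56.7% on the other autosomes.

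The sequence of distal peaks differed little between both sets of chromosomes. The central 300 bases had a median GC content of 46.3%, 46.7% and 49.0% in the 3 lists, within 1 percentage point of the other autosomes. Windows of the same length 5 kb to either side that touched no peak or promoter window had 42.3%, 43.0% and 43.7% on the 3 chromosomes. Kbz windows held 6.19 CpG on average and control Kac windows 3.76, against 3.52 and 3.20 in their flanks. Chromosome 6 had the lowest GC content, 43.7% in control Kac.

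Short motifs were counted as plain letter matches on either strand. AP-1 (TGANTCA) was found in 13.3%, 12.8% and 13.8% of the windows of the 3 chromosomes, against 8.83%, 8.56% and 9.18% of their flanks. The E-box CAGCTG was found in 16.1%, 16.5% and 19.1%, against 11.3%, 10.7% and 11.2%. The ETS letters CCGGAAG were found in 1.28%, 1.48% and 2.62%, against 0.835%, 0.686% and 0.831%, and the CTCF letters AGGNGGC in 21.1%, 22.7% and 26.7%, against 16.7% of flanks in control Kac and 18.2% in SB Kbz. The Wilson intervals of these shares lay apart from those of the flanks in all 3 lists. TEAD (CATTCC) lay above its flanks in both Kac lists, with 17.7% in control Kac against 15.1%. So did AGATAAG, the letters of the GATA family, with 5.59% against 4.01%. In control Kac the intervals of the liver factor letters overlapped those of their flanks. HNF4 (CAAAGTCC) was found in 1.41% (151 windows) against 1.12%, and FOXA (TGTTTAC) in 4.82% against 4.11%. HNF1 (GTTAATNA) was found in 3.41% against 3.85%, and CEBP (TTGCNNAA) in 14.2% against 14.8%. GC content, which was lower in the flanks, was not held equal in the comparisons with flanks. In SB Kac the FOXA share lay above its flanks, with 4.91% against 4.05%, and the SOX share below them, with 3.25% against 4.46%. RUNX (TGTGGTT), SOX (ACAATGG) and NRF1 (GCGCATGC) were found in 5.41%, 3.67% and 0.577% of control Kac windows, against 5.65%, 4.06% and 0.654%. Of 39 comparisons with the other autosomes, 13 in each list, the intervals were apart in 1, AP-1 in control Kac with 13.3% against 14.6%. In the printed windows, a TEAD match lay in the chromosome 1 peak and an E-box and a CEBP match in the chromosome 10 peak, and none of the 13 in the chromosome 6 peak.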

How the data were processed

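Per the study's methods and the labels, the authors aligned single reads of 50 bp to hg38 with Bowtie2 2.2.6, kept unique alignments, removed duplicates with SAMtools 0.1.19 and called peaks per library with MACS2 2.1.1 at an FDR of 0.01. The broad settings and background track are not given in the sources used here. The deposited fold is a linear ratio over background, the deposited −log10 p and −log10 q are averages over a peak, and the deposited score was not used. All lists reach down to a −log10 q of 1.31, under the 2 of that FDR.

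Groups came from the labels. The members and gene lists were chosen with earlier results of these data known. Centromeres were found from the 171-base repeat of the reference, and 2 distal SB Kbz peaks in that of chromosome 10 were left out of densities. Named peaks and bins were the 3 highest by fold and by control Kac density per chromosome, the longest peak per list, and the 5 genes nearest to most distal peaks. Nearest means the coding TSS closest to a peak's edge. Analyses used Python 3.11.15, NumPy 2.4.6, pandas 2.3.3 and SciPy 1.17.1, and were tested on simulated data. No test between groups was possible with 1 library each. Some genes that the naming rule covers are not reported here.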

Additional observations from a re-analysis of the deposited data

How the results depend on the processing

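The ratio of distal density on chromosomes 1, 6 and 10 to that on the other autosomes was above 1 under all 16 alternatives in each list, and 5, 6 and 10 of them in control Kac, SB Kac and SB Kbz moved it by less than its counting interval. The chromosomes had been chosen for high density in these same lists. A ratio above 1 is therefore no independent check, and the alternatives show only how far its size moved. In control Kac the ratio of 1.48 moved to 1.42 at a −log10 q of at least 2, 1.53 for the 15000 peaks of highest −log10 p, 1.45 with a promoter window of 1 kb, 1.62 over covered bases, 1.65 as a ratio of medians over bins, and 1.53, 1.32 and 1.62 for chromosomes 1, 6 and 10 alone. In SB Kac the ratio of 1.41 became 1.47 at a −log10 q of at least 5 and 1.47 for the 15000 peaks, 1.51 over covered bases, 1.52 over bins, and 1.45, 1.25 and 1.54 by chromosome. In SB Kbz the ratio of 1.43 became 1.60 over bins, 1.59 for chromosome 1 and 1.18 for chromosome 6. Merging peaks within 1 kb changed nothing, since the smallest gap was 1121 bp. Further alternatives were chosen after seeing the data. Peaks at or above the median fold gave 1.18, 1.14 and 1.22 in the 3 lists, weighting bins to equal coding genes 1.41, 1.33 and 1.36, and arms with promoter peaks at most 0.05 above 1 in relative −log10 p 1.64, 1.63 and 1.73.

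Shares of overlapping peaks moved more. Control Kac peaks overlapping SB Kac (53.9%) fell to 38.1% where 50% of the peak had to be covered and reached 57.5% at equal fold deciles, a weighting chosen after seeing the data; the share was above that of the other autosomes in 3 of 10 alternatives. SB Kac peaks overlapping control Kac (67.3%) had 72.3% and 76.6% at a −log10 q of at least 2 and 5, 77.6% for the 15000 peaks, 54.8% at 50% coverage, 68.3% on chromosome 1 and 69.9% at equal deciles, and were above the other autosomes in 10 of 10. SB Kac peaks overlapping SB Kbz (18.7%) had 22.7%, 36.9%, 60.0% and 8.01% under the first 4 of these, 19.7% on chromosome 1, 17.5% on chromosome 10 and 21.1% at equal deciles, above in 4 of 10. SB Kbz peaks overlapping SB Kac (88.0%) had 91.0%, 85.9%, 73.3% and 84.6% under the first 4, 86.1% on chromosome 1 and 91.7% on chromosome 6, above in 9 of 10. The cause of these moves was not tested.

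No paired analysis was possible because the 3 lists come from 1 library each, and for the same reason leaving out a replicate was not run. The read depth is unknown, and differences in peak number between lists cannot be told apart from depth or antibody.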
